A study of Rattus norvegicus with 12 samples.

Results

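Interferons are secreted proteins that warn cells of viral infection. Type I interferons act through a receptor pair and the JAK kinases on a transcription factor complex that contains IRF9 and binds a short DNA element in the promoters of their target genes. In liver, hepatocytes, Kupffer cells and endothelial cells all carry type I receptors, and the targets are known as interferon-stimulated genes. The 9 genes described here belong to that class: the transcription factor gene Irf7, the ubiquitin-like modifier gene Isg15, and the antiviral effector genes Ifit1, Ifit3, Rsad2, Mx1, Mx2, Oas1a and Ifi27l2b. They were chosen by name, with earlier results of these data known. The probe sets used were those whose only annotated symbol was that of 1 of the genes. Each gene had 1 such probe set, so 9 of 14506 named genes are covered.

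The RNA of 12 rat livers was hybridised to 12 arrays of the Affymetrix Rat Gene 1.0 ST design. The rats were male diet-induced obese Sprague-Dawley animals that received 1 of 3 diets from 12 weeks of age for 8 weeks, and the livers were taken at 20 weeks. All 3 diets were rich in fat and sucrose, were fed freely, held 4.6 kcal per g and gave 10% of energy as protein. In the leucine diet 7.1% of energy was casein and 2.9% was free leucine, in the dairy diet the protein came from skim milk powder, and in the casein diet, the control, casein was the only protein source, with 4 livers per diet. Added leucine and reduced casein cannot be told apart in the leucine diet, and no group of lean rats or rats on another base diet was analysed. The labels do not say whether replicates were separate animals beyond naming them as separate samples, so p-values measure the spread between these samples.

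Values are the authors' log2 signals, so a difference of 1 is a doubling of signal, and precision is limited by having 4 arrays per diet. Array medians lay between 4.43 and 4.62 and array SDs between 2.07 and 2.33, with the narrowest spread in dairy replicate 3 and casein replicate 4. The liver label was checked against 13 hepatocyte markers, whose mean signal was 12.18 to 12.53 with leucine, 12.07 to 12.44 with dairy and 12.27 to 12.61 with casein. Albumin, the main plasma protein made by hepatocytes, lay between 13.46 and 14.08 in all 12 livers. In whole tissue, fewer cells of a type and less RNA per cell cannot be told apart.

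Promoter sequence from RefSeq (build GRCr8, 250 bases before to 50 bases after the start) was held for 5 of the 9 genes, namely Irf7, Ifit3, Rsad2, Mx1 and Oas1a. The core of the element bound by this complex was searched as GAAANNGAAA on both strands, and 4 of these 5 promoters held it. It occurred in 3.92% of all 33469 promoters in the table and in 17 of 32 promoters of other antiviral interferon targets. The matches are shown because type I interferons act on their targets through this element, each as a window of 30 bases with the match in capitals. In the Oas1a window 2 overlapping matches merge into 1 run.
Ifit3, chr1:241527272-241527301, gene on the plus strand, minus strand printed: gtggaaactaGAAACTGAAAcagacttaaa
Rsad2, chr6:48788248-48788277, gene on the minus strand, plus strand printed: tctgttttctGAAAATGAAAgttgaaccag
Oas1a, chr12:41330418-41330447, gene on the plus strand, plus strand printed: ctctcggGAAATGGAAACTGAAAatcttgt
Irf7, chr1:205800073-205800102, gene on the minus strand, plus strand printed: tgcgtctcggGAAAATGAAAcctaaactgt
The matches lay 35 to 44 bases before the start of Ifit3, 138 to 147 before Rsad2, 26 to 41 before Oas1a and 60 to 69 before Irf7. These letters were not in the promoter window of Mx1, from which nothing follows about binding there. A match is a description of the sequence and not evidence of a bound site.

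Most of these genes varied widely between livers of the same diet, and the differences between diet means were small against that spread. Dairy replicate 2 and casein replicate 3 were the 2 highest livers for 6 of the 9 genes, Isg15, Ifit3, Rsad2, Mx1, Mx2 and Irf7, an order that 3.52% of all 15310 named probe sets shared. No leucine liver was the highest for any of the 9 genes. None of the 9 passed the test between diets, and Ifi27l2b was the only one in which the livers of 1 diet did not overlap with those of another.

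Irf7 encodes the transcription factor that amplifies type I interferon production once it has been induced. Its log2 signal was 5.51, 5.51, 5.86 and 6.45 in the 4 leucine livers, 6.12, 9.32, 6.28 and 7.23 in the dairy livers, and 5.84, 7.14, 8.93 and 6.14 in the casein livers. Dairy replicate 2 and casein replicate 3 stood above the rest, dairy replicate 4 and casein replicate 2 were intermediate, and the other livers of these diets lay within the range of the leucine livers. Irf7 was 1.41 log2 units lower in leucine than in dairy livers (SE 0.727, limma adjusted p = 0.735) and 1.18 lower in leucine than in casein livers (limma adjusted p = 0.999). Neither passed the test.

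Isg15 encodes a small ubiquitin-like protein that is attached to other proteins after interferon exposure. Its signal was 6.25, 6.59, 6.84 and 7.34 in leucine livers, 5.96, 10.64, 6.75 and 8.84 in dairy livers, and 5.96, 7.37, 9.35 and 6.69 in casein livers. The highest liver had 25.7 times the signal of the lowest, and both were dairy livers. Dairy replicate 4 was raised as well, and the lowest dairy and casein livers lay below every leucine liver. The mean was 6.76 ± 0.463 in leucine, 8.05 ± 2.11 in dairy and 7.34 ± 1.46 in casein livers (SD, n = 4 each).

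Ifit1 and Ifit3 encode tetratricopeptide proteins that bind viral RNA or associate in that complex, and they lie on the same chromosome with 1 protein-coding gene between them. Ifit1 had 3.44, 3.48, 4.97 and 3.60 in leucine livers, 4.30, 10.11, 4.66 and 3.36 in dairy livers, and 3.26, 5.64, 5.42 and 4.18 in casein livers. Dairy replicate 2 alone accounted for most of its range of 115-fold, and the 11 other livers lay between 3.26 and 5.64. Ifit3 had 4.66, 5.04, 5.76 and 5.96 in leucine livers, 4.66, 7.74, 5.08 and 6.64 in dairy livers, and 4.84, 5.49, 8.53 and 4.82 in casein livers. Unlike its neighbour it was highest in casein replicate 3 and was raised in dairy replicate 4, where Ifit1 was at 3.36, near its minimum.

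Rsad2 encodes viperin, a radical SAM enzyme that makes a chain-terminating nucleotide. Its signal was 3.70, 4.24, 5.96 and 4.56 in leucine livers, 3.95, 8.12, 4.20 and 5.10 in dairy livers, and 4.53, 4.92, 8.67 and 4.05 in casein livers. Casein replicate 3 and dairy replicate 2 lay more than 2 log2 units above leucine replicate 3, the next liver, and the 3 diets overlapped throughout the lower range.

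Mx1 and Mx2 encode dynamin-like GTPases that block viral replication, and they too are neighbours with 1 protein-coding gene between them. Mx1 was 4.11, 4.11, 3.91 and 4.38 in leucine livers, 3.78, 5.38, 3.96 and 4.43 in dairy livers, and 3.58, 4.69, 5.37 and 3.13 in casein livers. Mx2 was 6.70, 6.60, 6.50 and 6.73 in leucine livers, 6.08, 9.77, 5.84 and 8.43 in dairy livers, and 6.86, 8.52, 10.06 and 5.81 in casein livers. The leucine livers were nearly alike for Mx2, with a range of 0.236 log2 units against 3.93 in dairy and 4.25 in casein livers, and they lay below 3 of the 4 casein livers and between the lower and the higher pair of dairy livers. Casein replicate 2, close to the mean of all livers for Isg15, was among the high livers for Mx2.

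Oas1a encodes an oligoadenylate synthetase, which activates the RNA-degrading enzyme RNase L. It was 5.05, 4.99, 3.75 and 5.09 in leucine livers, 4.85, 7.12, 4.70 and 5.55 in dairy livers, and 5.48, 6.80, 5.66 and 4.68 in casein livers. Here casein replicate 2 was second to dairy replicate 2, and casein replicate 3 lay close to dairy replicate 4. The rat genome holds several Oas1 copies, and related sequence could reach the same probes, so which copy these signals came from is uncertain, and the same holds for Mx1 against Mx2.

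Ifi27l2b, a small interferon-inducible gene of the Ifi27 family, followed a different order. It was 7.34, 7.51, 6.13 and 7.13 in leucine livers, 8.83, 9.63, 8.23 and 8.61 in dairy livers, and 7.60, 8.21, 6.57 and 6.99 in casein livers. All 4 dairy livers lay above all 4 livers of both other diets, although the margin over casein replicate 2 was small. Casein replicate 3, which was high for 6 of the genes, was among the lowest for Ifi27l2b. It is a member of a family of similar genes, so cross-hybridisation cannot be told apart from its own signal.

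**Figure D1:**
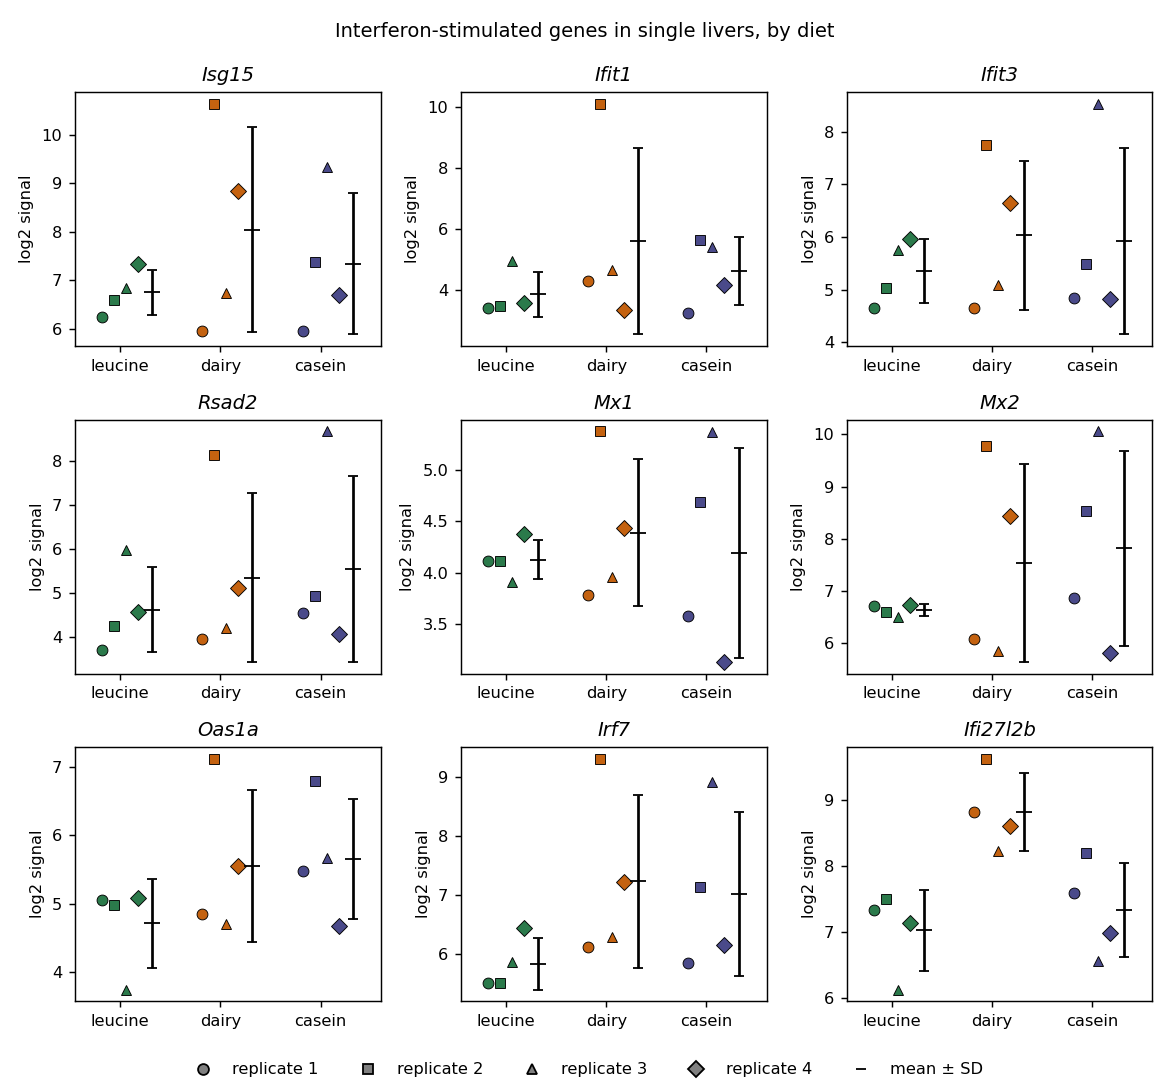
Log2 signal (y axis, own scale per panel) of the 9 interferon-stimulated genes in each liver with leucine, dairy and casein diets (x axis), with the replicate given by the marker shape and bars for mean ± SD of 4 livers. Dairy replicate 2 (10.64 for Isg15) and casein replicate 3 (9.35) stand above the other livers in 6 panels, and the dairy livers do not overlap the others for Ifi27l2b.

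For the diets, Ifi27l2b had the largest ratio of difference to error among the 9 genes. It averaged 8.83 ± 0.591 in dairy and 7.34 ± 0.713 in casein livers (SD, n = 4 each), a difference of 1.48 log2 units (SE 0.400, 95% interval 0.61 to 2.35) or 2.79-fold. The limma p was 0.00283 before adjustment and 0.238 after Benjamini-Hochberg adjustment over all 15310 probe sets, so it did not pass. With array weights it passed (limma adjusted p = 0.0412), in a fit that called 7.72% of all probe sets. Against dairy, leucine livers averaged 7.03 ± 0.618, a difference of -1.80 (SE 0.400, interval -2.67 to -0.93, limma adjusted p = 0.604). Leucine and casein livers differed by -0.31 (interval -1.18 to 0.55, limma adjusted p = 0.999).

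No member passed an adjusted p of 0.05 in dairy against casein, where 0.0849% of all probe sets did (13 of 15310), nor in leucine against casein or leucine against dairy, where 0% did. The F test over the 3 diets called 0.0327% of all probe sets and no member. At an unadjusted limma p under 0.05, 1 of 9 members passed in dairy against casein, 0 in leucine against casein and 1 in leucine against dairy, beside 10.9%, 3.31% and 6.95% of all probe sets. The member was Ifi27l2b both times. Counted by order alone, 1 member had every dairy liver above every casein liver, as did 2.09% of all probe sets. Every leucine liver lay below every dairy liver for 1 member and for 3.04% of all, and below every casein liver for 0 members and 1.38% of all.

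The 8 genes other than Ifi27l2b had limma adjusted p-values of 0.735 or more in all 3 comparisons, with 95% intervals that spanned 0. These intervals were wide: for Ifit1 in leucine against dairy the interval ran from -4.26 to 0.78, and for Rsad2 in dairy against casein from -2.48 to 2.08. Differences of several fold in either direction would not have been detectable with 4 livers per diet.

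**Figure D2:**
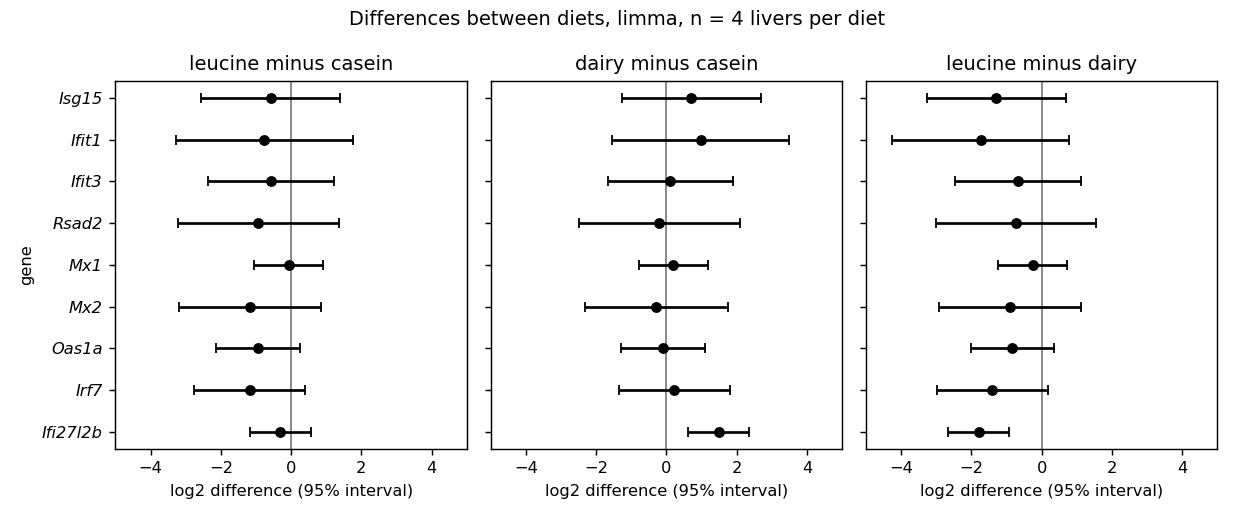
Difference in log2 signal (x axis) for each of the 9 genes (y axis) in 3 panels for leucine minus casein, dairy minus casein and leucine minus dairy, with limma estimates as points and 95% intervals as bars. Only the Ifi27l2b intervals in the 2 comparisons with dairy (1.48 and -1.80) do not reach 0, and neither difference passed adjustment over all probe sets.

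In sign alone, all 9 genes were lower in leucine than in casein livers (median -0.76, against -0.03 over all probe sets, 56.2% of which were lower) and all 9 were lower in leucine than in dairy livers (median -0.90, against -0.01, with 52% lower). The 2 comparisons share the leucine livers, and the genes move together from liver to liver, so the 9 signs are not separate observations. Without casein replicate 3, 5 of the 9 were lower in leucine than in casein livers, with a median of -0.43. Without dairy replicate 2, 7 of the 9 were lower in leucine than in dairy livers, with a median of -0.24. In dairy against casein 6 genes were higher and 3 lower (median 0.20, against -0.02 over all), but 1 was higher and 8 were lower without dairy replicate 2, 9 were higher without dairy replicate 1 or dairy replicate 3, 8 without casein replicate 3, and 3 without casein replicate 1 or casein replicate 4.

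The spread between livers of 1 diet was large for these genes beside the bulk of the array. The residual SD within diets had a median of 1.36 over the 9 genes, from 0.643 for Ifi27l2b to 1.92 for Ifit1, against a median of 0.295 over all probe sets. Ifit1 was at the 99.8th percentile of all probe sets and Ifi27l2b at the 92.3rd. Among the 500 probe sets nearest in mean signal, Ifi27l2b was at the 82.8th percentile and the other 8 lay between the 96.8th and the highest. Single livers carried part of this: the residual SD of Ifit1 was 0.883 without dairy replicate 2, and that of Ifit3 was 0.966 without casein replicate 3.

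The leucine livers were the most alike. The SD over 4 livers had a median over the 9 genes of 0.609 with leucine, 1.47 with dairy and 1.39 with casein, against 0.219, 0.283 and 0.308 over all probe sets. It was lowest with leucine for 8 of the 9 genes, as for 49.5% of all probe sets, and lowest with dairy for Ifi27l2b. No test of the spread was made, since the genes were chosen with earlier results of these data known. The dairy and casein SDs include single high livers, in genes that vary together. For Ifit1, dairy replicate 2 was at 10.11 and the other dairy livers at 3.36 to 4.66. For Mx2, the casein livers other than replicate 3 still ran from 5.81 to 8.52, against 6.50 to 6.73 with leucine. How much of the difference in spread the high livers carried was not tested.

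**Figure D3:**
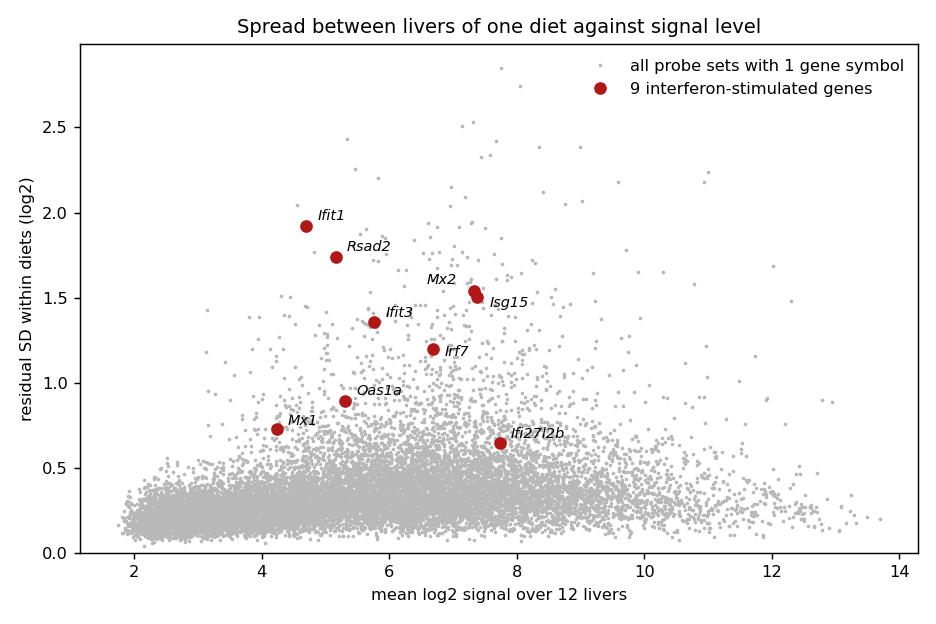
Residual SD within diets (y axis, log2) against mean log2 signal over 12 livers (x axis) for 15310 probe sets with 1 gene symbol (grey) and the 9 interferon-stimulated genes (red). The genes lie between 0.643 (Ifi27l2b) and 1.92 (Ifit1), where the median of all probe sets is 0.295.

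Averaged over the 9 genes after scaling each to SD units around its mean, dairy replicate 2 stood at 1.97 and casein replicate 3 at 1.18. Casein replicate 2 was at 0.449 and dairy replicate 4 at 0.391, and the 8 remaining livers lay between -0.745 and -0.228. All 4 leucine livers were in that low group, with values of -0.604, -0.502, -0.528 and -0.228.

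Of the 4 livers with positive averages, dairy replicate 2 was high for all genes and the other 3 for some of them. In dairy replicate 2 all 9 genes were above their mean, by 5.4 log2 units for Ifit1 and by 1.1 for Mx1. Casein replicate 3 was above the mean for 8 genes, by 3.5 for Rsad2, and 1.2 below it for Ifi27l2b. Casein replicate 2 was highest relative to the mean for Oas1a (1.5) and Mx2 (1.2), with Ifit3 and Rsad2 slightly below their means. Dairy replicate 4 was raised for Isg15 (1.5), Mx2 (1.1) and Ifit3 (0.9), while Ifit1 was 1.3 below its mean.

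**Figure D4:**
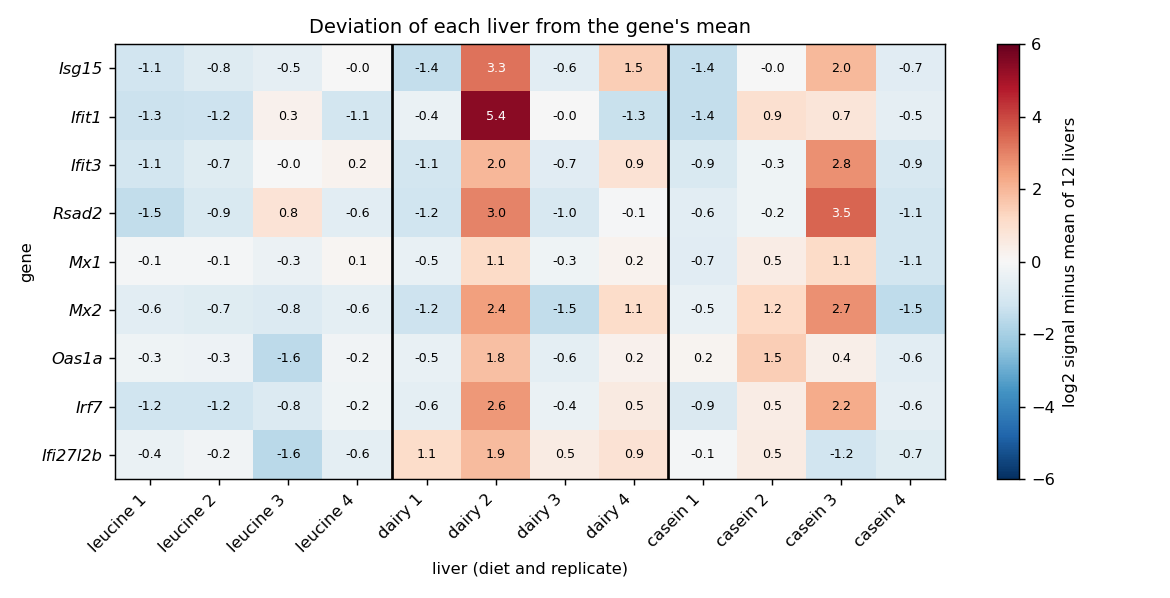
Log2 signal of each liver minus the gene's mean over 12 livers (colour and printed value), for 9 genes (rows) in the leucine, dairy and casein livers (columns). Dairy replicate 2 is above the mean in all 9 rows, casein replicate 3 in 8 rows and not for Ifi27l2b (-1.2), and the leucine columns lie mostly below it.

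Between genes, Pearson correlations over the 12 livers were above 0 for all 36 pairs, with a median of 0.725. After Benjamini-Hochberg adjustment over the 36 pairs, 25 had a permutation p under 0.05 with Pearson's r and 14 with Spearman's rho (median 0.591). With each diet's mean removed, the median r was 0.737 and 19 pairs passed. The relation rested in part on the extreme livers: without the 2 livers farthest from the median of the first gene of a pair, the median r was 0.499, from -0.407 to 0.922. How other gene pairs on the array correlate was not set beside these values. The genes were chosen with earlier results of these data known, so the p-values of pairs here and below are descriptive only.

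Isg15 and Irf7 had r = 0.940 (permutation p = 3e-05, adjusted 0.00108) and rho = 0.874 (adjusted permutation p = 0.0027), and r = 0.795 without dairy replicate 2 and casein replicate 3. For Isg15 and Ifit3, r was 0.927 (adjusted permutation p = 0.0022) and rho 0.923 (adjusted permutation p = 0.00132) with all 12 livers. Without the same 2 livers r was 0.922, so that pair varied together in the other livers as well. Isg15 and Ifit1, in contrast, had r = 0.733 (adjusted permutation p = 0.0246) and rho = 0.566 (adjusted permutation p = 0.104) with all livers, and r = 0.022 without those 2, so that relation rests on them. Ifit1 and Oas1a had r = 0.623 (adjusted permutation p = 0.0579) and rho = 0.210 (adjusted permutation p = 0.600), and r = -0.349 without dairy replicate 2 and casein replicate 2. The 8 pairs that include Ifi27l2b were weaker, with a median r of 0.307 against 0.826 for the 28 other pairs, and only Oas1a with Ifi27l2b passed (r = 0.627, adjusted permutation p = 0.0422, against rho = 0.399, adjusted permutation p = 0.267).

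The probe sets whose pattern over the 12 livers was most like the average of the 9 genes were sought among the 7650 candidates of at least median signal. Uba7, the enzyme that activates ISG15 for conjugation, came first with r = 0.924, followed by Cmpk2, a mitochondrial nucleotide kinase gene next to Rsad2 in mammals (0.917), and Adar, which edits double-stranded RNA (0.900). Znfx1 (0.894), Slfn4 (0.888), Flii (0.885), Slc46a1 (0.876), Usp18 (0.867), Dhx58 (0.865) and Lgals3bp (0.864) completed the 10. In all, 44 candidates had r over 0.8 and 3 over 0.9. These values describe 12 livers of which 2 are extreme, and the genes were ranked on them.

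Of the genes that conjugate or remove ISG15, all 5 listed were measured. Uba7 had 5.89, 5.99, 5.70 and 6.23 in leucine livers, 6.26, 8.53, 6.82 and 7.06 in dairy livers, and 6.57, 7.15, 7.61 and 6.47 in casein livers. Every leucine liver lay below every liver of both other diets, though leucine replicate 4 (6.23) was only just below dairy replicate 1 (6.26). Of all probe sets, 3.04% had every leucine liver below every dairy liver, and 1.38% below every casein liver. The limma F-test p of Uba7 was 0.0239 before adjustment and 0.598 after it. Usp18, the protease that removes ISG15 and dampens the receptor, had 3.46, 4.53, 5.50 and 6.37 in leucine livers, 3.79, 8.15, 4.12 and 7.06 in dairy livers, and 5.17, 6.33, 7.51 and 3.12 in casein livers, with all 3 diets overlapping. All 5 genes of this list had lower means in leucine than in casein and than in dairy livers (medians -0.57 and -0.48), 3 of the 5 without casein replicate 3 in the first comparison, and none passed adjustment. The ligase gene Trim25 and the conjugating enzyme gene Ube2l6 had limma F adjusted p-values of 0.742 and 0.801.

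Among 39 measured genes of the other antiviral targets, none passed adjustment in any comparison. Leucine livers had the lower mean for 31 of 39 against casein (median -0.26) and 34 of 39 against dairy (median -0.28), and 23 and 26 when casein replicate 3 or dairy replicate 2 was left out. Of all probe sets 56.2% and 52% were lower in these comparisons, which share the leucine livers. The signs of genes that vary together are not separate observations. Dairy livers had the higher mean for 20 of 39 against casein. For 18 of the 39, dairy replicate 2 and casein replicate 3 were the 2 highest livers, as for 3.52% of all probe sets. Tor3a, Lgals3bp, which encodes a secreted glycoprotein, and Ifi27, of the same family as Ifi27l2b, came closest in the limma F test, with adjusted values of 0.584, 0.628 and 0.679 (unadjusted 0.0208, 0.0395 and 0.0726). Ifi27 averaged 10.20 ± 0.362 in leucine, 10.85 ± 0.290 in dairy and 10.53 ± 0.486 in casein livers. Ifit2, another Ifit gene, and Oasl, an oligoadenylate synthetase-like gene, were highest in casein replicate 3 (9.01) and dairy replicate 2 (9.01) and did not pass (limma F test, adjusted p = 0.959 and 0.955).

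Of the receptors and signal transducers, 8 of 12 listed genes were measured and none passed. Irf9, the DNA-binding subunit of the type I complex, averaged 6.91 ± 0.388 in leucine, 7.21 ± 0.611 in dairy and 7.54 ± 0.345 in casein livers (limma F test, adjusted p = 0.757). Stat2, another signal transducer, averaged 8.69 ± 0.510, 8.86 ± 0.347 and 8.91 ± 0.366 in leucine, dairy and casein livers. The receptor gene Ifngr1 and the kinase gene Jak1 had limma adjusted F p-values of 0.814 and 0.817. Of the nucleic acid sensors 13 of 20 were measured and none passed, with Tlr3 (0.774), Tlr9 (0.783) and Zbp1 (0.803) closest. Of 9 negative regulators none passed either, with Pias1 (0.628), the exonuclease gene Trex1 (0.861) and Socs1 (0.887) closest.

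The mean of targets typical of interferon gamma followed in part another order of livers than the average of the 9 genes. The 39 other antiviral targets differed from that average in part as well. Over them dairy replicate 4 ranked 3 of 12 (6.49), leucine replicate 3 came next (6.09) and casein replicate 2 ranked 6 (6.06). Over 23 measured interferon gamma targets, the mean log2 signal was highest in dairy replicate 2 (9.20), dairy replicate 4 (8.95), casein replicate 3 (8.72) and leucine replicate 3 (8.39). Leucine replicate 2 was at 7.56, and casein replicate 2 ranked 11 of 12 with 6.80. Single genes differed: for 7 of the 23, dairy replicate 2 and casein replicate 3 were the 2 highest livers, as for 3.52% of all probe sets. The median r of the 23 with the average of the 9 genes was 0.570, against 0.658 for the 39 antiviral targets. It was 0.845 for Tap2 and 0.812 for Tap1, but 0.455 for Cxcl10 and 0.356 for Irf1. Cxcl10, a chemokine that attracts activated T cells, had 5.59, 10.20, 11.08 and 7.27 in leucine livers, 4.55, 10.33, 7.83 and 11.19 in dairy livers, and 5.22, 5.33, 10.98 and 7.13 in casein livers. Leucine replicates 2 and 3 thus had Cxcl10 signals similar to those of dairy replicate 2 and casein replicate 3, although their averages over the 9 interferon-stimulated genes were negative. Irf1, a transcription factor induced by interferon gamma, was likewise high in leucine replicates 2 and 3 (9.18 and 9.56) beside dairy replicates 2 and 4 (8.83 and 10.21) and casein replicate 3 (8.73). Casein replicate 2 showed the reverse, with 8.52 for Mx2 and 6.80 for Oas1a but 5.66 for Irf1 and 5.45 for Gbp2, a guanylate-binding protein gene that reached 9.47 in dairy replicate 2.

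None of these 23 genes passed adjustment. Means were higher in dairy than in casein livers for 16 of them (median 0.51) and lower for 7, a split that became 11 higher and 12 lower without dairy replicate 2. Leucine livers had the lower mean for 16 against casein livers, 11 without casein replicate 3 and 9 with array weights, and for 20 against dairy livers, 14 without dairy replicate 2. Of all probe sets 46.9% were higher in dairy than in casein livers. Lower in leucine livers were 56.2% against casein and 52% against dairy. Cd74, the invariant chain of class II antigen presentation, averaged 9.44 ± 0.246 in leucine, 10.39 ± 0.509 in dairy and 9.67 ± 0.537 in casein livers (limma F test, 0.0165 before adjustment, adjusted p = 0.583). The class II genes RT1-Ba and Ciita (adjusted 0.675 and 0.708) and the immunoproteasome gene Psmb8 (0.899) did not pass in the limma F test. Of 16 acute phase genes none passed, with Apcs (0.576), Orm1 (0.739) and A2m (0.841) closest.

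Some markers of other cell types were also high in some of these livers. The mean of 12 neutrophil markers ranged from 3.79 to 5.73 in leucine, 4.09 to 5.93 in dairy and 3.76 to 5.41 in casein livers, and it was highest in dairy replicate 4, leucine replicate 3, dairy replicate 2 and casein replicate 3. Their summed linear signal ranged from 222 to 993 in leucine, 340 to 1350 in dairy and 250 to 819 in casein livers. Elane and Mpo, which encode proteins of neutrophil granules, stayed between 3.41 and 4.44 in all livers, and Camp between 3.39 and 3.98. S100a9 reached 8.35 in dairy replicate 4, where Csf3r (7.52), Cxcr2 (5.83), S100a8 (6.03) and Mmp8 (6.14) were high as well. In the mean of the 12 markers leucine replicate 3 was thus high, with a negative average over the 9 genes. Casein replicate 2 was low in that mean (3.90), with a positive average over the 9 genes.

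The mean of 13 Kupffer cell and macrophage markers ranged from 7.01 to 8.21 in leucine, 6.85 to 8.15 in dairy and 7.22 to 7.85 in casein livers, and ranked dairy replicate 2 at 4 and casein replicate 3 at 3 of 12. Single markers went opposite ways in dairy replicate 2. There Clec4f (6.75) and Vsig4 (6.52) were at their lowest of the 12 livers, and Lyz2 (9.52) and Itgam (6.27) at their highest. Markers of lymphocytes and NK cells (15 genes) ranged from 4.08 to 4.38, 4.13 to 4.50 and 4.06 to 4.52 in leucine, dairy and casein livers, and ranked dairy replicate 2 at 3, dairy replicate 4 at 2 and casein replicate 3 at 1 of 12. Markers of plasmacytoid dendritic cells (8 genes) ranged from 5.28 to 5.69, 5.59 to 5.88 and 5.46 to 5.71. Dairy replicate 2 was at 1, dairy replicate 4 at 2 and casein replicate 3 at 4 of 12. Of these markers Bst2 is itself an interferon target, and Irf8 is also in the list of interferon gamma targets. Irf8 was highest in casein replicate 3 (8.16), dairy replicate 2 (8.04) and dairy replicate 4 (7.86). Its r with the average of the 9 genes was 0.712, where the median of these markers was 0.235. Stellate cell and matrix markers (10 genes) ranged from 5.69 to 5.99, 5.89 to 6.34 and 5.60 to 6.15, with dairy replicate 2 at 3 and casein replicate 3 at 2 of 12. Hepatocyte markers ranked dairy replicate 2 at 11 and casein replicate 3 at 9 of 12. The part of these cell types in the signals of the 9 genes was not tested.

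**Figure D5:**
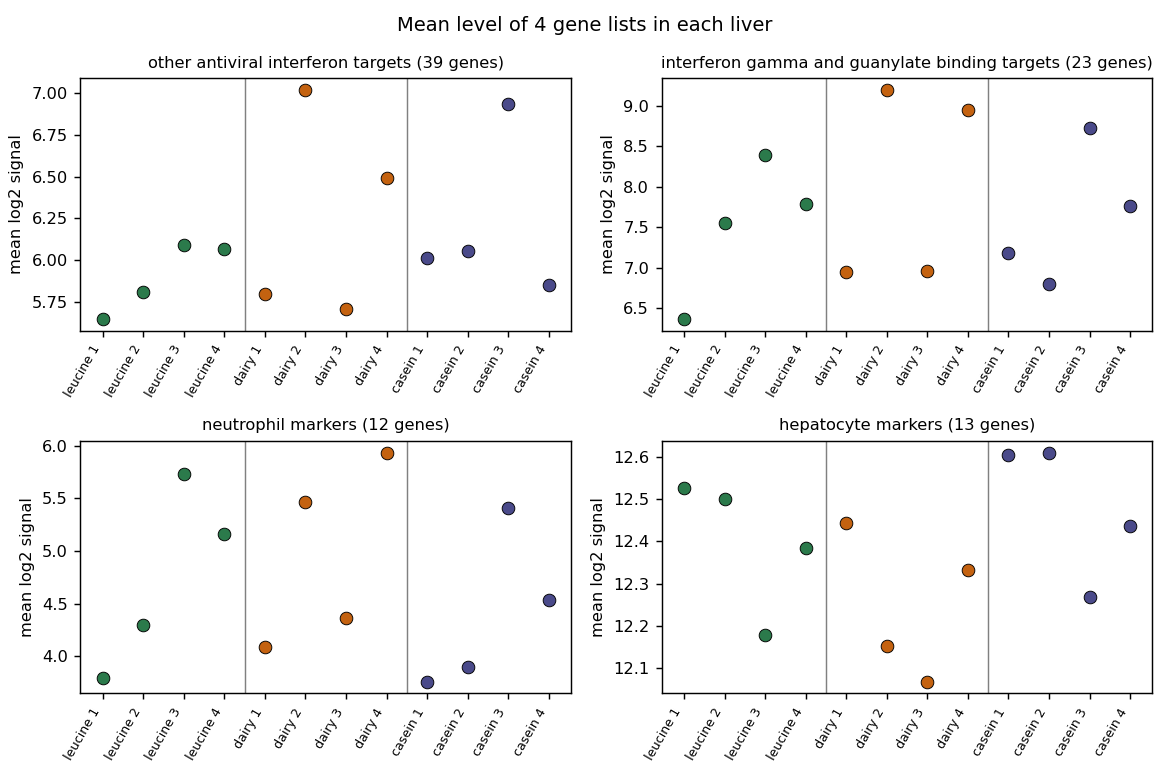
Mean log2 signal (y axis, own scale per panel) of 4 gene lists in each leucine, dairy and casein liver (x axis). Dairy replicate 2 and casein replicate 3 lead for the 39 other antiviral targets (7.02 and 6.94), where leucine replicate 3 is at 6.09, next after dairy replicate 4 (6.49). Leucine replicate 3 is among the high livers for interferon gamma targets (8.39) and neutrophil markers (5.73). Hepatocyte markers span 12.07 to 12.61.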

How the data were processed

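The deposited values are log2 signals, 1 per probe set and array, and the submitters' processing notes name Affymetrix Expression Console as the program. Which version and algorithm summarised and normalized them, and on what build, is not given in the sources used here. Per the labels' protocols, Trizol extraction was followed by RNeasy purification and biotin labelling. A log2 signal close to background understates a fold change, and no detection calls were used here.

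Of 29214 probe sets, 15310 had exactly 1 symbol in the platform annotation, 323 had several and 13581 were not listed. Diets were compared with limma 3.58.1 in R 4.3.3 on the deposited values (3 group means over 12 arrays, eBayes with default settings, two-sided, 9 residual and 3.448 prior degrees of freedom), with Benjamini-Hochberg adjustment over the 15310 probe sets and a threshold of 0.05. The scripts were tested on simulated data. Permutation tests of pairs used 100000 resamples (SciPy 1.17.1). For list genes with several probe sets, the one of highest mean signal was used.

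The members and lists were chosen with earlier results of these data known. Named genes were the 9 members, 10 key genes (1 of them is not reported here), the 10 most alike probe sets and, per pathway list, genes past the threshold or else the 3 of smallest F-test p. Alternatives were 9 changes of scaling, filter, probe sets or model, each of the 12 arrays left out in turn and, for pairs, rank correlation. An alternative without casein replicate 4 and dairy replicate 3 was chosen after seeing the data. All 7 pathway lists and 8 marker lists were measured; those for endothelial cells, stellate cells and matrix, and red blood cells had 7, 10 and 6 genes measured and none passed.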

Additional observations from a re-analysis of the deposited data

Results flagged for a closer look

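Of 27 sets of 4 livers (9 genes in 3 diets), 2 held a liver far from the others by Dixon's test, where chance flags about 1 in 20. Ifit1 in leucine replicate 3 had a log2 signal of 4.97, where the next highest leucine liver was at 3.60. Oas1a in the same liver had 3.75, where the next lowest leucine liver was at 4.99. The same liver was thus high for Ifit1 and low for Oas1a. It also had the highest mean of 6 red blood cell markers (7.52, against at most 6.34 in any other liver), whose part in these signals was not tested.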

How the results depend on the processing

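No scaling reversed a member: under quantile normalization and median centring all 9 differences kept their sign in the 3 comparisons. Ifi27l2b kept its direction under every alternative run, at 1.21 to 1.77 in dairy against casein and -2.14 to -1.50 in leucine against dairy, and its adjusted p moved between 0.0237 and 0.555 and between 0.0218 and 0.975. With array weights 1 member, Ifi27l2b, was called in dairy against casein (limma adjusted p = 0.0412, beside 7.72% of all probe sets called) and in the F test (0.0307, beside 2.73%), and Cd74 passed the F test (0.0189). With the replicate block 1 member, Ifi27l2b, was called in dairy against casein (0.0237, beside 19 calls of all, 0.124%), in leucine against dairy (0.0218, then the 1 call of all probe sets) and in the F test (0.0407, then 3 calls of all). The labels do not say that a number marks shared livers, litters or days. Deviations of same-numbered arrays of different diets correlated between -0.505 and 0.590 (median 0.285, 7 of 12 pairs over 0.1, against a median of -0.152 for other pairs), and 2 of 12 arrays correlated best with their own number, so the numbers were not taken as pairs.

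Calls over all probe sets in dairy against casein, 13 as reported, were 22 under quantile normalization, 42 over all probe sets in the file, 2 with 1 probe set per gene, 8 with trend and robust, 1182 with array weights, 6 with only the arrays of both diets, 164 without both arrays of narrowest spread, and 3 to 237 leaving out 1 array, the highest without casein replicate 4. F test calls, 5 as reported, were 0 under quantile normalization, 12 over all probe sets in the file, 0 with 1 probe set per gene, 418 with array weights and 0 to 23 leaving out 1 array, again highest without casein replicate 4. Leucine against casein gave 0 to 2 calls leaving out 1 array. The causes were not tested.

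In dairy against casein, array weights turned Mx2 to 0.74, Oas1a to 0.19 and Rsad2 to 1.35, and leaving out both arrays of narrowest spread turned Mx1 to -0.016. Leaving out 1 array changed signs there for Ifit3 (-0.46 to 0.98), Ifit1 (-0.52 to 1.73), Irf7 (-0.47 to 0.86), Isg15 (-0.16 to 1.40), Mx1 (-0.16 to 0.59), Mx2 (-1.03 to 0.47), Oas1a (-0.62 to 0.28) and Rsad2 (-1.13 to 0.84). In leucine against casein it did so for Ifit3 (-0.93 to 0.30), Mx1 (-0.42 to 0.33), Isg15 (-1.05 to 0.083) and Rsad2 (-1.43 to 0.11), and in leucine against dairy for Mx1 (-0.46 to 0.068) and Rsad2 (-1.19 to 0.20). The median correlation of member pairs was 0.550 without dairy replicate 2 and 0.720 to 0.762 without any other liver.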
